A study of Mus musculus with 7 samples.

Results

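Oligodendrocyte precursor cells (OPCs) of the V-SVZ, the stem cell niche along the lateral ventricle, were picked out of a single-cell RNA sequencing data set by their own transcripts. A cell counted as an OPC when it held at least 2 UMIs of Pdgfra and at least 1 of Lhfpl3, no UMI of Bmp4 or Enpp6, which mark precursors that have committed to differentiate, and no UMI of Mog or Opalin, which mark mature oligodendrocytes. A UMI, or unique molecular identifier, tags 1 captured mRNA molecule, so that copies made during amplification are counted once. Of 43346 cells with 500 to 7000 detected genes and at most 10% mitochondrial UMIs, 390 (0.900%) met this definition, and together they held 3070301 UMIs.

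OPCs are the dividing cells of the oligodendrocyte lineage. They depend on platelet-derived growth factor, which they sense through the receptor Pdgfra, and carry the surface proteoglycan NG2, the product of Cspg4. On leaving the cell cycle they pass through a committed stage with Gpr17, Bmp4 and Enpp6 before they make myelin, and they are known for glutamate receptors and ion channels that let them respond to neurons.

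The 7 libraries came from mice aged 31 to 33 days. The 3 control libraries carried floxed Prdm16 (labelled Prdmflox/flox) and no Cre, the 3 cKO libraries were hGFAP-Cre+/-; Prdm16flox/flox, and the DKO library was hGFAP-Cre+/-; Prdm16flox/flox; Vcam1flox/flox. The hGFAP-Cre transgene is active in radial glia, so their progeny, including part of the OPCs, carry the deletion while OPCs from other sources need not. Each library pooled 2 to 3 mice, described as including both sexes, and the DKO genotype rests on 1 library, for which values are given with no test.

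The control libraries held 71, 23 and 98 OPCs, the cKO libraries 67, 12 and 58, and the DKO library 61. OPCs made up 0.920%, 0.486% and 1.03% of the kept control cells, 1.08%, 0.642% and 0.904% of the cKO cells and 0.885% of the DKO cells. The share was 0.812 ± 0.288% in control and 0.875 ± 0.219% in cKO (SD, n = 3 each), a difference smaller than the spread between libraries (p = 0.7, exact two-sided permutation test, which cannot go below 0.1 with 3 libraries against 3). Median UMIs per OPC ran from 5298 in cKO 1 to 9933 in cKO 2, so that cKO 2 had the deepest and the fewest cells. The limits on detected genes and mitochondrial UMIs kept 49.8% of the barcodes of cKO 2 and 47.2% of cKO 3. They kept 70.2% to 74.7% in the other libraries.

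The gate was not a sharp line in the data. At its lower edge, 24 OPCs held exactly 2 Pdgfra UMIs and 26 held exactly 1 Lhfpl3 UMI, while 16 cells with 1 Pdgfra UMI and 91 with no Lhfpl3 UMI met every other condition and stayed outside. The median OPC held 11 Pdgfra and 7 Lhfpl3 UMIs. At its upper edge, 451 further cells met the Pdgfra and Lhfpl3 limits but held Bmp4, Enpp6, Mog or Opalin, 252 of them through 1 UMI only. In every library these removed cells had more UMIs than the OPCs kept, for example a median of 13874 against 9933 in cKO 2, so the upper limits also selected on depth.

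Several libraries stood apart in their OPCs. Xist, the RNA of the inactive X chromosome, had 0 UMIs in the OPCs of control 1, cKO 2 and the DKO library, although pools of both sexes are described. In these libraries 50, 8 and 49 OPCs held UMIs of Y chromosome genes. In the other libraries Xist had 223 to 677 UMIs. There 12 to 41 OPCs held Xist only and 6 to 40 held Y chromosome genes only. The part of sex in the DKO values was not tested. In control 2, microglial markers summed to 1218 CPM, counts scaled to a common library total, against 17.3 to 85.1 in the rest, and 271 of the 285 UMIs lay in 1 cell that Scrublet marked as a doublet. Markers of astroglia and neural stem cells (NSCs) summed to 4893 CPM in control 2 against 1159 to 1507 elsewhere, with 567 of 1145 UMIs in 1 unmarked cell. Scrublet marked 13 of the 390 OPCs. No OPC barcode was shared between libraries, and 5 OPC barcodes were also a kept cell of another library.

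The OPC label was checked on genes that the gate did not use, with microglia as the only other class. With every cell reduced at random to 4000 UMIs, which left out 55 shallower OPCs, Cspg4 was found in 85.4% of OPCs and C1ql1, a secreted C1q family protein, in 92.5%, against 0.305% and 0.916% of microglia, which should lack them and served as the background of free RNA. Olig1, a lineage transcription factor, was found in 99.4% of OPCs against 8.09% of microglia, and Ptprz1, a receptor phosphatase carrying chondroitin sulfate, in 100% against 12.1%. A transcript of mature oligodendrocytes was at background. Mbp, myelin basic protein, was found in 46.6% of OPCs and 51.5% of microglia, so these UMIs cannot be read as myelin expression by OPCs.

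Between libraries, the highest level was 1.36 times the lowest for Cspg4 and 1.72 times for Olig1. In CPM scaled by the TMM method over the OPC sums of the 7 libraries, Cspg4 had a lowest, median and highest value of 476, 543 and 649, and C1ql1 of 589, 905 and 1001. Olig1 ranged from 1855 to 3186 CPM and Ptprz1 from 3188 to 5311. The gate genes Pdgfra and Lhfpl3, given as description, ranged from 1385 to 2268 and from 692 to 1164 CPM. Of the 36 genes of a list of OPC identity, 35 had more than 3 UMIs, and their summed level lay between 25839 CPM in control 2 and 29153 CPM in control 1, with the cKO and DKO libraries in between.

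**Figure D1:**
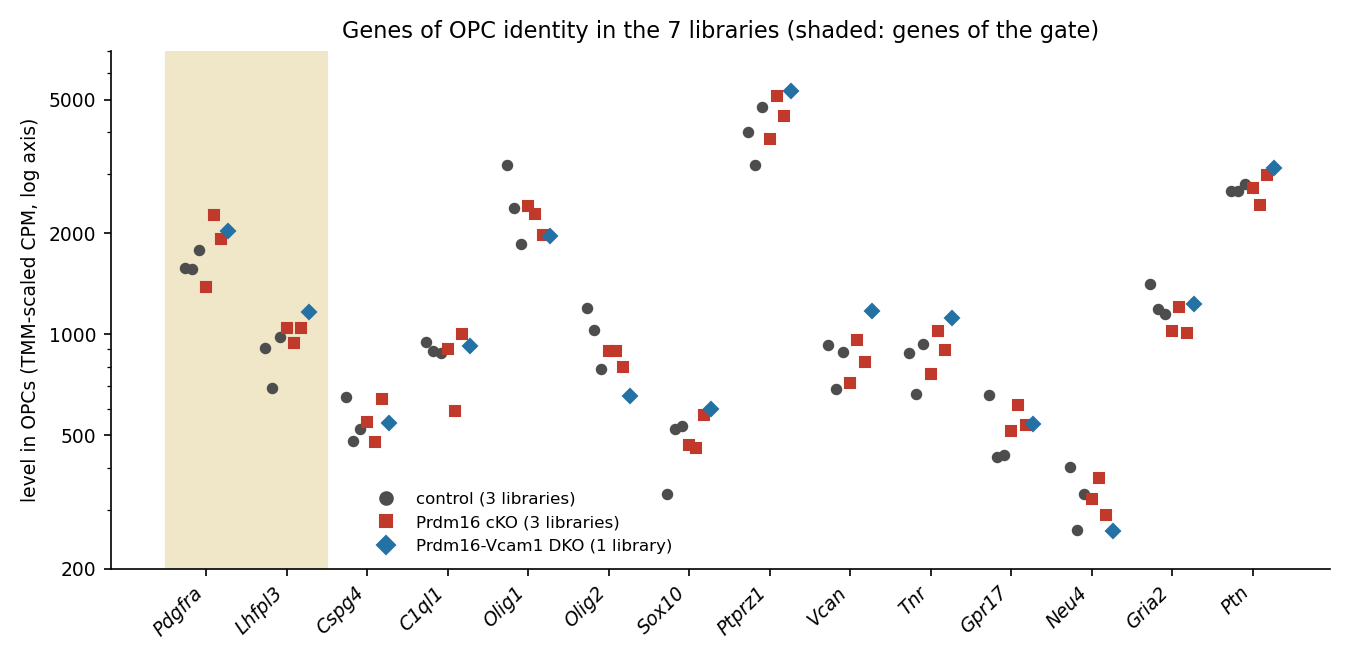
Level of 14 OPC genes (TMM-scaled CPM, log axis) in the OPCs of each library; dark circles are the 3 control, red squares the 3 cKO and the blue diamond the 1 DKO library, and the shading marks the 2 genes of the gate. For Cspg4, C1ql1 and Olig1 the symbols of the groups overlap, with Cspg4 between 476 and 649 CPM in all libraries.

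What sets OPCs apart from the next step of their lineage was examined within libraries, by comparing them with committed precursors: 220 cells with at least 2 UMIs of Bmp4 and Enpp6 together, at least 2 of Olig1, Olig2 and Sox10 together, and none of Mog or Opalin. OPCs were higher in Notch targets, growth factor feedback genes, glutamate receptors, ion channels and cell cycle genes, and lower in commitment, myelin, ribosomal protein and cholesterol genes. By edgeR with the library as a block, 1777 of 9419 genes were higher in OPCs (18.9%) and 1806 lower (19.2%) at an adjusted p under 0.05. These shares are the background for the list counts against committed cells. Of 32 tested genes of the OPC identity list, 19 were higher in OPCs and 7 lower (median 0.98). Both classes were picked by gate genes read in the same cells, and these were taken out of the fit, yet a gene that goes with them from cell to cell had to differ. The tests therefore show which differences held across libraries, on a CPM scale set anew for each comparison.

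Notch targets and feedback genes of receptor tyrosine kinases led the genes higher in OPCs. Hes5, a Notch target that holds cells undifferentiated, had a lowest, median and highest level of 254, 387 and 435 CPM in OPCs and of 9.28, 39.4 and 97.7 CPM in committed cells (log2 difference 3.05 ± 0.28 SE, edgeR adjusted p = 2.11e-05, higher in 7 of 7 libraries). Hes1, another Notch target, was higher by 2.69 ± 0.29, and its levels did not overlap between the classes either. Etv5, a transcription factor induced by growth factor signalling, had 84.7, 116 and 189 CPM in OPCs against 3.09, 14.5 and 23.6 CPM (2.97 ± 0.22, edgeR adjusted p = 6.76e-12). Spry4 and Spry1, which damp the same signalling, were higher by 2.92 ± 0.20 and 2.40 ± 0.19. Of the 23 tested read-outs of Notch, BMP, Wnt and growth factor signalling, 14 were higher in OPCs and 1 lower, with a median log2 difference of 1.47 against -0.0035 over all genes.

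Receptors and ligands followed in part. Among the receptors, 14 of 30 tested were higher in OPCs and 5 lower (median 0.56), against 18.9% and 19.2% of all genes. Ednrb, the endothelin B receptor, ranged from 636 to 845 CPM in OPCs and from 71.1 to 169 CPM in committed cells, with no overlap (2.63 ± 0.14, edgeR adjusted p = 3.00e-14), and Adora1, the adenosine A1 receptor, was higher by 2.70 ± 0.22. Thra, a thyroid hormone receptor, went the other way, at 180 to 308 CPM in OPCs and 714 to 1083 CPM in committed cells (-1.75 ± 0.12). Of the ligands, 13 of 21 were higher and 2 lower (median 1.16). Ptn, pleiotrophin, a ligand of Ptprz1, had 2593 CPM in the median library of OPCs and 887 CPM in that of committed cells (1.69 ± 0.20), while Sema5a, a guidance semaphorin, was lower in OPCs by 1.37 on the log2 scale.

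Glutamate and GABA receptor subunits and ion channels were mostly higher in OPCs: 24 of 30 tested subunits were higher and 0 lower (median 1.37), and 21 of 27 channels were higher and 1 lower (median 1.59). Grm5, a metabotropic glutamate receptor, ranged from 101.9 to 217 CPM in OPCs and from 24.1 to 98.4 CPM in committed cells (1.65 ± 0.16). Cacng4, an auxiliary subunit of AMPA receptors, was at 453 to 661 CPM against 181 to 333 CPM (1.15 ± 0.10). Kcnd2, a voltage-gated potassium channel, was higher by 1.91 ± 0.16, and Scn3a, a sodium channel, by 1.70 ± 0.18, each in 7 of 7 libraries.

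Of 24 tested proteoglycan and matrix genes, 13 were higher in OPCs and 5 lower (median 0.74), against 18.9% and 19.2% of all genes. Cspg5, neuroglycan C, had 3235, 3461 and 3791 CPM in OPCs against 413, 547 and 682 CPM in committed cells (2.66 ± 0.11, edgeR adjusted p = 7.13e-18), and Cspg4 and the glypican Gpc5 were higher by 1.86 ± 0.11 and 2.67 ± 0.21. Tnr, the matrix protein tenascin-R, was lower in OPCs, at 632 to 1045 CPM against 1413 to 1947 CPM, 2.01-fold. Vcan, versican, differed by only 0.28 ± 0.11 and its levels overlapped. Chl1, a cell adhesion molecule, was higher in OPCs by 2.80 ± 0.19 with no overlap.

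Most committed genes were lower in OPCs, some of them close to absent. Of 26 genes of commitment, 23 were lower in OPCs and 3 higher (median -2.82). Gpr17, a receptor that marks the step to commitment, had 412, 503 and 616 CPM in OPCs and 1803, 1960 and 2485 CPM in committed cells (-2.02 ± 0.10, edgeR adjusted p = 1.20e-15). Fyn and Sirt2, a kinase and a deacetylase of the maturing lineage, were lower by 3.48 and 3.67 on the log2 scale, without overlap. The exceptions were Sox11, Dcx and Tubb3, genes of immature neural cells, which were higher in OPCs by 1.07 to 1.67, and the 6 neuroblast markers tested, which include Dcx and Tubb3, were higher as well. Of the neuroblast marker UMIs in OPCs, 81 of 250 in cKO 1, 78 of 313 in control 3 and 71 of 327 in DKO lay in 1 cell each that was marked as a doublet, and 86 of 240 in cKO 3 in 1 unmarked cell. Dcx was found in 36.4% of OPCs after reduction to equal depth, against 7.02% of microglia.

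Several of the named genes far below the committed level were little known or non-coding. 9530059O14Rik, a non-coding RNA, had 4 UMIs in all OPCs, at most 2.38 CPM, and 200 to 461 CPM in committed cells. With so few UMIs it passed the filter on low counts through the committed cells, and so did Gm36988 with 1 UMI and Rassf10 with 4 UMIs in all OPCs, for which no fold is given. Frmd4a, a scaffold protein, was lower by 5.25, and Gm36988 lies inside Frmd4a on the same strand (chromosome 2, 4316479 to 4318886, GRCm38), so that unspliced Frmd4a RNA and Gm36988 cannot be told apart. 9630013A20Rik, Bfsp2, Cnksr3 and Parvb were lower by 6.32, 5.03, 4.81 and 4.69, in every library.

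Growth and metabolism genes also differed. Of 79 ribosomal protein genes, 76 were lower in OPCs and 1, Rpl13, was higher (median -0.62). Cholesterol synthesis genes were lower in 16 of 24 cases and higher in 0 (median -0.70), and nuclear oxidative phosphorylation genes lower in 36 of 78 and higher in 0 (median -0.25). Of the 13 mitochondrially encoded genes, 0 were called, 0 had an unadjusted p under 0.05, and the median was -0.07. Genes of S phase were higher in 19 of 31 cases and lower in 1, and those of G2 and M phase higher in 12 of 41 and lower in 0. Committed cells held more UMIs per cell than OPCs, with a median of 10229 against 6569 in control 1, and the part of depth in these differences was not tested. Of 4 tested markers of leptomeningeal fibroblasts, 2 were lower in OPCs. Dcn, a proteoglycan of such cells, was at 0 in the OPCs of every library and at 77.6 and 66.7 CPM in the committed cells of control 3 and cKO 3, with 0 in the other committed samples.

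**Figure D2:**
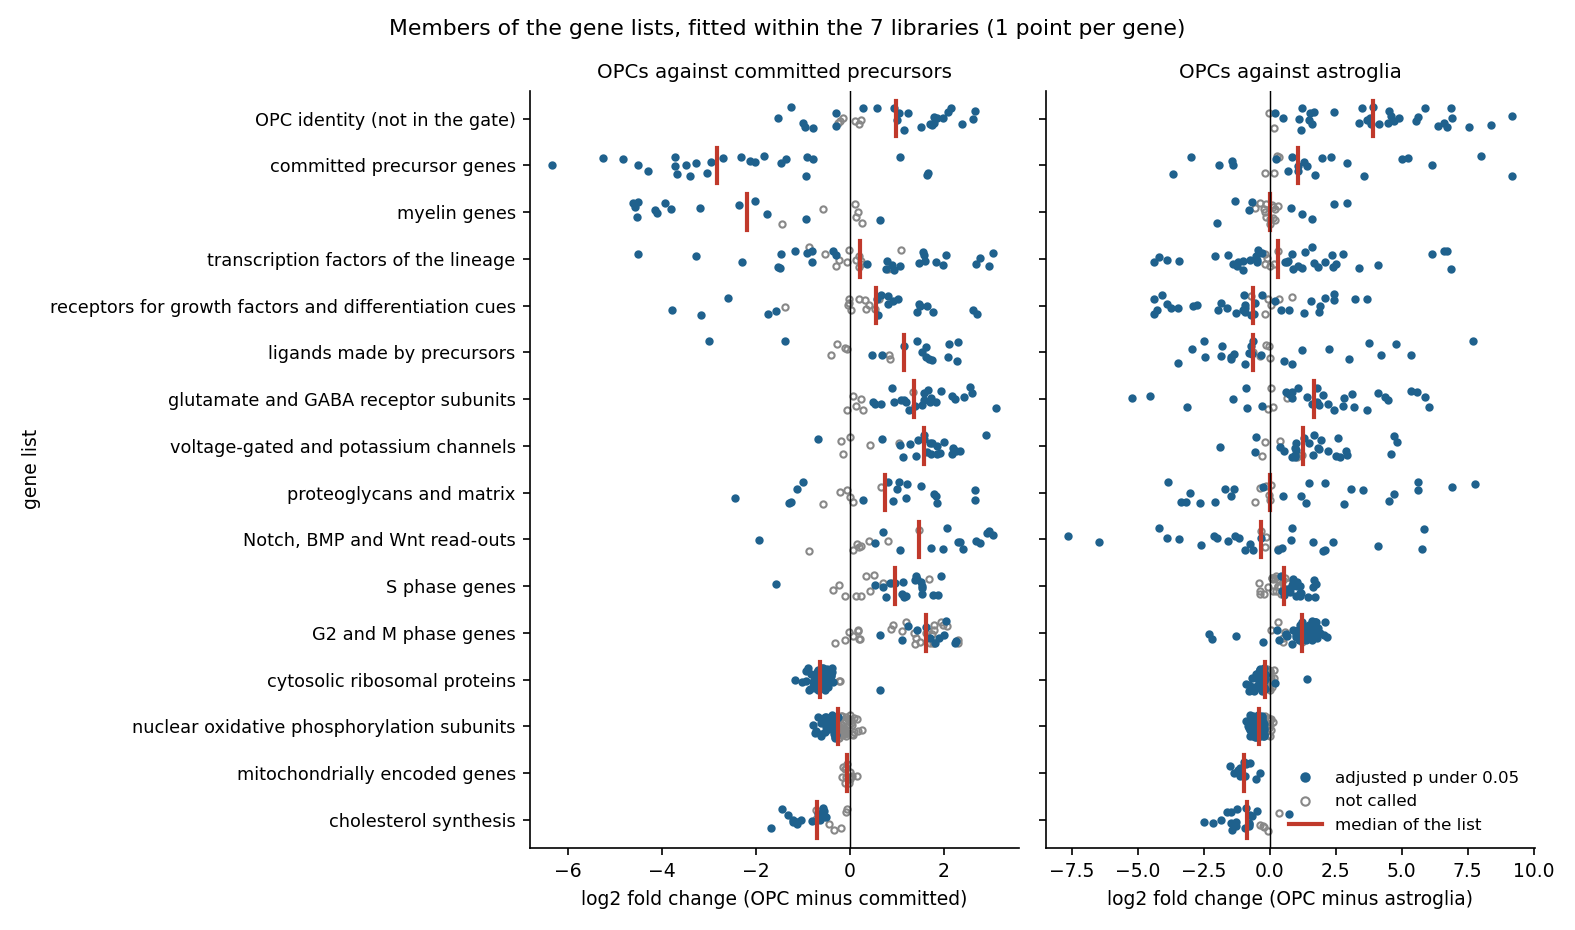
Log2 fold change of each tested member of 16 gene lists between OPCs and committed precursors (left) and between OPCs and astroglia (right), from fits within the 7 libraries; filled points have an adjusted p under 0.05 and red bars are list medians. The medians of receptor subunits and channels lie right of 0 in both panels, at 1.37 and 1.59 on the left, and the committed genes lie left on the left (median -2.82) and right on the right (median 1.07).

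Astroglia here were cells picked by Gja1 and Aqp4 as NSCs and astrocytes, though the gate did not remove ependymal markers. They descend from radial glia, as part of the OPCs do, and gave a second comparison within the same suspensions. OPCs were higher in most identity genes, synaptic receptors, channels and cell cycle genes, and lower in astroglial, ciliary and mitochondrial genes. In 4663 astroglia against the 390 OPCs, 3253 of 13312 genes were higher in OPCs (24.4%) and 4488 lower (33.7%). These shares are the background for the list counts against astroglia. Neu4, a sialidase, had 219, 276 and 348 CPM in OPCs and at most 1.11 CPM in astroglia. Genes near 0 in either class passed the filter on low counts through the other and had to differ, so the values of such genes describe their size only. Gpr17, Cspg4, Olig2 and Olig1 were higher by 7.99, 6.90, 6.85 and 6.70, and 33 of the 35 tested identity genes were higher and 0 lower (median 3.92 against -0.07 over all genes). Transcription factors of the lineage went both ways, with 22 of 45 higher and 17 lower (median 0.32).

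Less known genes reached the same size. Vxn, which encodes vexin, had 244, 344 and 396 CPM in OPCs and at most 1.91 CPM in astroglia, and Pcdh15, a protocadherin, and Nxph1, a neurexin ligand, were higher by 7.54 and 7.48. Sema3d and Sema5a, guidance ligands, were higher by 7.69 and 4.78. Of 31 ligands, though, 15 were lower in OPCs and 10 higher, against 33.7% and 24.4% of all genes. Receptor subunits were higher in 25 of 36 cases and lower in 7, among them Gria3, an AMPA receptor subunit, at 220 to 345 CPM against 2.26 to 11.2 CPM (5.56 ± 0.31). Spry1 and Spry4 were higher by 5.78 and 4.09, but Id2, a BMP target, was lower by 1.58 and Ntrk2, the receptor of BDNF, lower by 1.83.

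Astroglial and ciliary genes were low in OPCs. Agt, angiotensinogen, had 15 UMIs in all OPCs, at most 15.8 CPM, and 85.6, 331 and 902 CPM in astroglia. Spef2 and Dnah12, proteins of motile cilia, were lower by 5.44 and 5.24, together with 10 of 10 tested ependymal markers, which the astroglial gate did not remove. Slc39a12, a zinc transporter, Naaa and Lix1 were lower by 5.63, 5.46 and 5.18. The little-known 1700001C02Rik and 2410004P03Rik had 6 and 7 UMIs in all OPCs, and no fold is given for them. All 13 mitochondrially encoded genes were lower in OPCs (median -0.98), as were 64 of 78 nuclear oxidative phosphorylation genes (median -0.42) and 18 of 24 cholesterol synthesis genes (median -0.85). Mitochondrial RNA was thus lower in OPCs than in the cells of the astroglial gate in these libraries. The part of ependymal cells in this difference was not tested.

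Within the OPCs, cells differed in Gpr17 and in cell cycle genes. At equal depth Gpr17 was found in 82.0%, 81.0% and 73.3% of control OPCs, in 72.9%, 100% and 85.2% of cKO OPCs and in 84.6% of DKO OPCs, against 0.458% of microglia. The groups overlapped (78.8 ± 4.72% and 86.0 ± 13.6%, p = 0.5, exact permutation test), and the 100% of cKO 2 rests on 9 cells. OPCs with at least 2 Gpr17 UMIs and those with none were told apart without reduction to equal depth. The part of depth in their comparison was not tested. The comparison was possible in control 3 and cKO 1 only, with 71 and 41 positive cells against 16 and 11 negative cells. There 3 of 4305 genes were higher (0.0697%), the mitosis genes Prc1, Ube2c and Top2a, and Eno2, neuronal enolase, was lower (0.0232%), all by edgeR. Without the doublets edgeR called 0 of 3908 genes, with 165 at an unadjusted p under 0.05, and DESeq2 called 0 with the doublets kept, with 25. Prc1 was at 156 and 201 CPM in the Gpr17 positive cells and at 0 in the others, so that it passed the filter on low counts only through the former.

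OPCs with at least 2 UMIs over Mki67, Top2a, Cdk1 and Birc5, genes of dividing cells, made up 11.5%, 14.3% and 11.1% of control OPCs at equal depth and 10.4%, 11.1% and 7.41% of cKO OPCs. These shares, 12.3 ± 1.74% and 9.65 ± 1.97% (SD, n = 3), overlapped (p = 0.2, exact permutation test), and the DKO share was 9.62%. Without the reduction to equal depth the shares were 13.6 ± 3.29% in control and 8.64 ± 0.311% in cKO with no overlap, at the smallest p the design allows, 0.1. In microglia the same measure gave 5.44% in control and 4.54% in cKO at equal depth, and 5.87% and 3.47% without that reduction. The OPC value of cKO 2 rests on 1 cell.

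The comparison of cKO with control OPCs asks what loss of Prdm16 in radial glia leaves behind in this lineage. No gene passed the test: 0 of 9710 were called by edgeR (0%), with 169 higher (1.74%) and 190 lower (1.96%) at an unadjusted p under 0.05 and a smallest adjusted p of 0.9991, and DESeq2 called 1, Prm1. In 387 genes (3.99%) every cKO library lay above every control library, and in 500 (5.15%) every cKO library lay below. Libraries came from pooled tissue, so a lower value can mean less RNA per cell or fewer cells with it, which summed counts cannot tell apart.

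The targeted gene could not be followed in OPCs. Prdm16 (chromosome 4, 154316125 to 154636873, GRCm38), a zinc finger transcription regulator, had 6 UMIs in all 390 OPCs, 3 in control 2, 3 in control 3 and 0 elsewhere, and the share of OPCs with a UMI, 0.597% at equal depth, did not exceed the 1.22% of microglia. In astroglia it was measurable, at 53.6, 48.6 and 43.6 CPM in control, 40.3, 38.6 and 36.0 CPM in cKO and 41.6 CPM in DKO, so that the cKO and DKO values lay below every control value. In endothelial cells, which do not descend from radial glia, control and cKO overlapped, at 17.9 to 27.6 and 16.8 to 22.1 CPM. The endothelial means were 22.7 and 18.7 CPM, and the DKO value, 43.4 CPM, was the highest. Counts of 3′ ends do not show whether a floxed exon was lost.

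Vcam1, a cell adhesion molecule and the second gene deleted in the DKO, was lower in cKO OPCs in every library but not by the test. It had 96.0, 150 and 116 CPM in control, 67.9, 86.6 and 79.1 CPM in cKO and 68.8 CPM in DKO, with no overlap between control and cKO. The log2 difference was -0.63 ± 0.26 (unadjusted p = 0.0213, edgeR adjusted p = 0.9991), and it was -0.64 within the libraries of Cell Ranger 6.0.1 and -0.55 within those of 6.1.1. At equal depth 32.6 ± 9.07% of control, 21.9 ± 3.25% of cKO and 17.3% of DKO OPCs held a Vcam1 UMI (p = 0.1, exact permutation test), against 5.34% of microglia in all libraries together. In astroglia the control and cKO values overlapped, at 137 to 209 and 173 to 176 CPM, and the DKO value was 96.9 CPM. The DKO value was also the lowest in endothelial cells, at 30.2 CPM against 51.3 to 117 CPM in control and 68.8 to 227 CPM in cKO. Within libraries Vcam1 was higher in OPCs than in committed cells (1.86 ± 0.30, edgeR adjusted p = 1.09e-04, 7 of 7 libraries) and lower than in astroglia (-1.20 ± 0.12, lower in 7 of 7).

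Prm1 was present in the OPCs of every library with Cre and in none without it. This gene (chromosome 16, 10796326 to 10805839, GRCm38) encodes protamine 1, which packs DNA in sperm. The UMIs are 3′ reads assigned to it, and whether they came from this locus was not tested. Prm1 had 0 UMIs in the OPCs of all 3 control libraries, 60.3, 260 and 282 CPM in cKO 1, 2 and 3, and 142 CPM in DKO. The mean of the cKO libraries was at least 99.3-fold higher than control, taking 3 UMIs over all control OPCs as the floor, and the lowest cKO library 29.9-fold. By edgeR the unadjusted p was 0.0384 and the adjusted p 0.9991, while DESeq2 gave an adjusted p of 4.73e-05. The Cre transgene was carried by the cKO and DKO mice and by no control, so Cre and the loss of Prdm16 cannot be told apart here.

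Within the libraries with Cre, Prm1 differed between cell classes. It was found in 20.9%, 83.3% and 72.4% of cKO OPCs and 37.7% of DKO OPCs, and in 30.3%, 55.8%, 70.5% and 40.1% of the astroglia of the same libraries. Committed cells, the next step of the same lineage, had it in 13.2%, 15.4%, 33.3% and 18.4% of cells although they were deeper, and endothelial cells, which do not descend from radial glia, in 3.17%, 2.65%, 6.604% and 7.03%. In CPM Prm1 was higher in OPCs than in committed cells in 4 of 4 such libraries (2.40 ± 0.27, edgeR adjusted p = 1.69e-07) and lower than in astroglia on the TMM scale of that fit (-0.70 ± 0.14, edgeR adjusted p = 4.98e-05, 4 of 4). The latter direction depends on the scaling, since in counts per total without TMM cKO 2 went the other way, at 258 CPM in OPCs and 213 CPM in astroglia. These shares are at unequal depth. At equal depth they were 14.6%, 55.6% and 55.6% in cKO OPCs and 17.3% in DKO OPCs, against 3.57%, 3.45%, 11.1% and 2.41% of microglia. Without that reduction the share of OPCs with Prm1 in cKO 1, whose OPCs were the shallowest, lay below those of cKO 2 and cKO 3, with exact 95% intervals of 11.9% to 32.6%, 51.6% to 97.9% and 59.1% to 83.3%. For the control libraries, 0 of 71, 0 of 23 and 0 of 98 OPCs allow shares of cells with a UMI of up to 4.23%, 13.0% and 3.06%, taking 3 cells of each total as the limit and for counting error only. They do not limit the share of cells that express the gene.

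**Figure D3:**
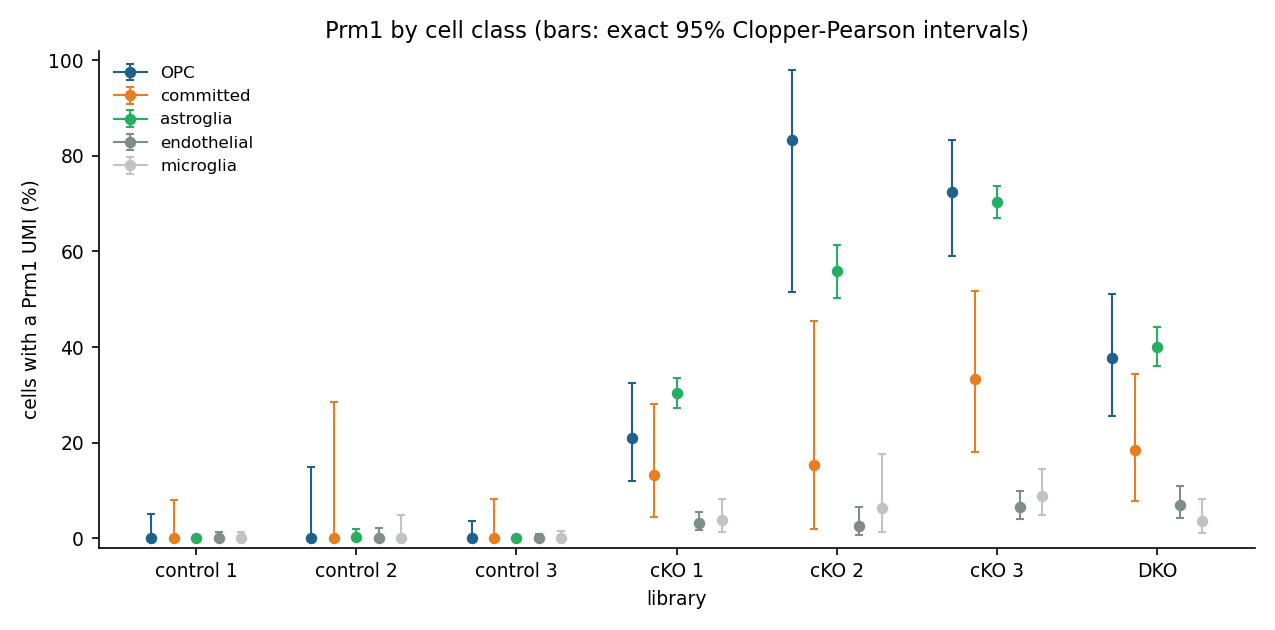
Share of cells with a Prm1 UMI (%) in each library by cell class, with exact 95% Clopper-Pearson intervals. In the cKO and DKO libraries OPCs (dark blue) and astroglia (green) lie above committed precursors (orange), and endothelial cells and microglia lie below 10%.

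By the rule for named genes, the 6 higher and 6 lower genes with the smallest unadjusted p among those without overlap were examined (edgeR adjusted p = 0.9991 for the smallest). Their choice fixes that they keep their direction in any subset of the libraries. Hes1 had 107, 124 and 175 CPM in control and 241, 216 and 225 CPM in cKO (0.73 ± 0.23), but 98.3 CPM in DKO, below every control library. Chn1, chimaerin 1, a signalling protein of neurons, had 51.2, 38.5 and 41.8 CPM in control and 108, 86.6 and 73.0 CPM in cKO (1.00 ± 0.30), and 33 of its 43 UMIs in cKO 1 came from 1 cell. Ccnb2, cyclin B2, had 12.8, 42.7 and 20.2 against 47.8, 60.6 and 58.8 CPM (1.30 ± 0.39), held by 2, 1 and 5 cKO cells, in cKO 2 in 1 cell only. Smim11, a small membrane protein, Utp11, a ribosome biogenesis factor, and Jph4, a junctophilin, were higher by 0.83 ± 0.25, 0.78 ± 0.25 and 1.26 ± 0.41. Of the 21 Jph4 UMIs of cKO 1, 12 lay in 1 cell. Within the libraries of Cell Ranger 6.0.1 and 6.1.1 the difference was 2.30 and 0.65 for Jph4 and 0.98 and 0.36 for Hes1. Of these 6 genes, the DKO value lay above every control library for all but Hes1. Their choice, which takes genes with low control values, favours this. Over all 9710 genes tested, the DKO value lay above every control library in 2387 and below every one in 2310.

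Among the lower genes, some values rested on few cells. Sox9, a transcription factor of astroglia and early precursors, had 117, 111 and 54.0 CPM in control, 40.2, 0 and 22.3 CPM in cKO and 15.7 CPM in DKO (-1.76 ± 0.43). The difference was -4.17 within the libraries of Cell Ranger 6.0.1, where cKO 2 is at 0, and -1.24 within those of 6.1.1, which hold control 3 and cKO 3. In control 1, 2 and 3 a lone cell gave 40 of 55, 18 of 26 and 14 of 40 of its UMIs, and the shares of OPCs with a UMI were 16.9%, 17.4% and 20.4% in control and 16.4%, 0% and 13.8% in cKO. The 0 of cKO 2 rests on 12 cells. Hspa1a, a heat shock gene nearly identical to Hspa1b and so open to lost reads, had 61.9, 59.8 and 26.98 CPM against 17.6, 0 and 12.2 CPM (-1.84 ± 0.48), with 16 of 29 UMIs of control 1 in 1 cell. Its difference was -3.84 within version 6.0.1, where cKO 2 is at 0, and -1.09 within 6.1.1. Hspa1b, with 24 UMIs in all OPCs, leaned the other way. In the fit with endothelial cells it had 7.21, 10.3 and 2.3 CPM in control OPCs and 14.5, 13.6 and 8.43 CPM in cKO OPCs, which overlapped. The part of reads shared by these copies was not tested. Of 13 heat shock genes, 9 had a positive difference (median 0.11). The list summed to 5777 to 8876 CPM in control and 6535 to 9339 CPM in cKO, which overlapped.

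Klf6, a transcription factor that promotes differentiation of the lineage, was spread over more cells. It had 211, 197 and 148 CPM in control and 118, 113 and 75.0 CPM in cKO (-0.89 ± 0.25), with UMIs in 46.5%, 65.2% and 55.1% of control and 32.8%, 41.7% and 34.5% of cKO OPCs. The DKO value of 179 CPM lay within the control range. Tnfrsf19, a receptor of the TNF family, Map2k7, a kinase upstream of JNK, and Ppfia1, liprin-alpha 1, were lower by 1.26 ± 0.38, 1.11 ± 0.37 and 1.18 ± 0.40. For Ppfia1 the difference was -1.87 within version 6.0.1 and -0.85 within 6.1.1. Map2k7 overlaps Gm49320 on the same strand, where reads of the genes can be shared. For Tnfrsf19, Map2k7 and Ppfia1 the DKO values, 35.4, 49.1 and 41.3 CPM, lay below every control library. The choice of genes with high control values favours this as well.

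**Figure D4:**
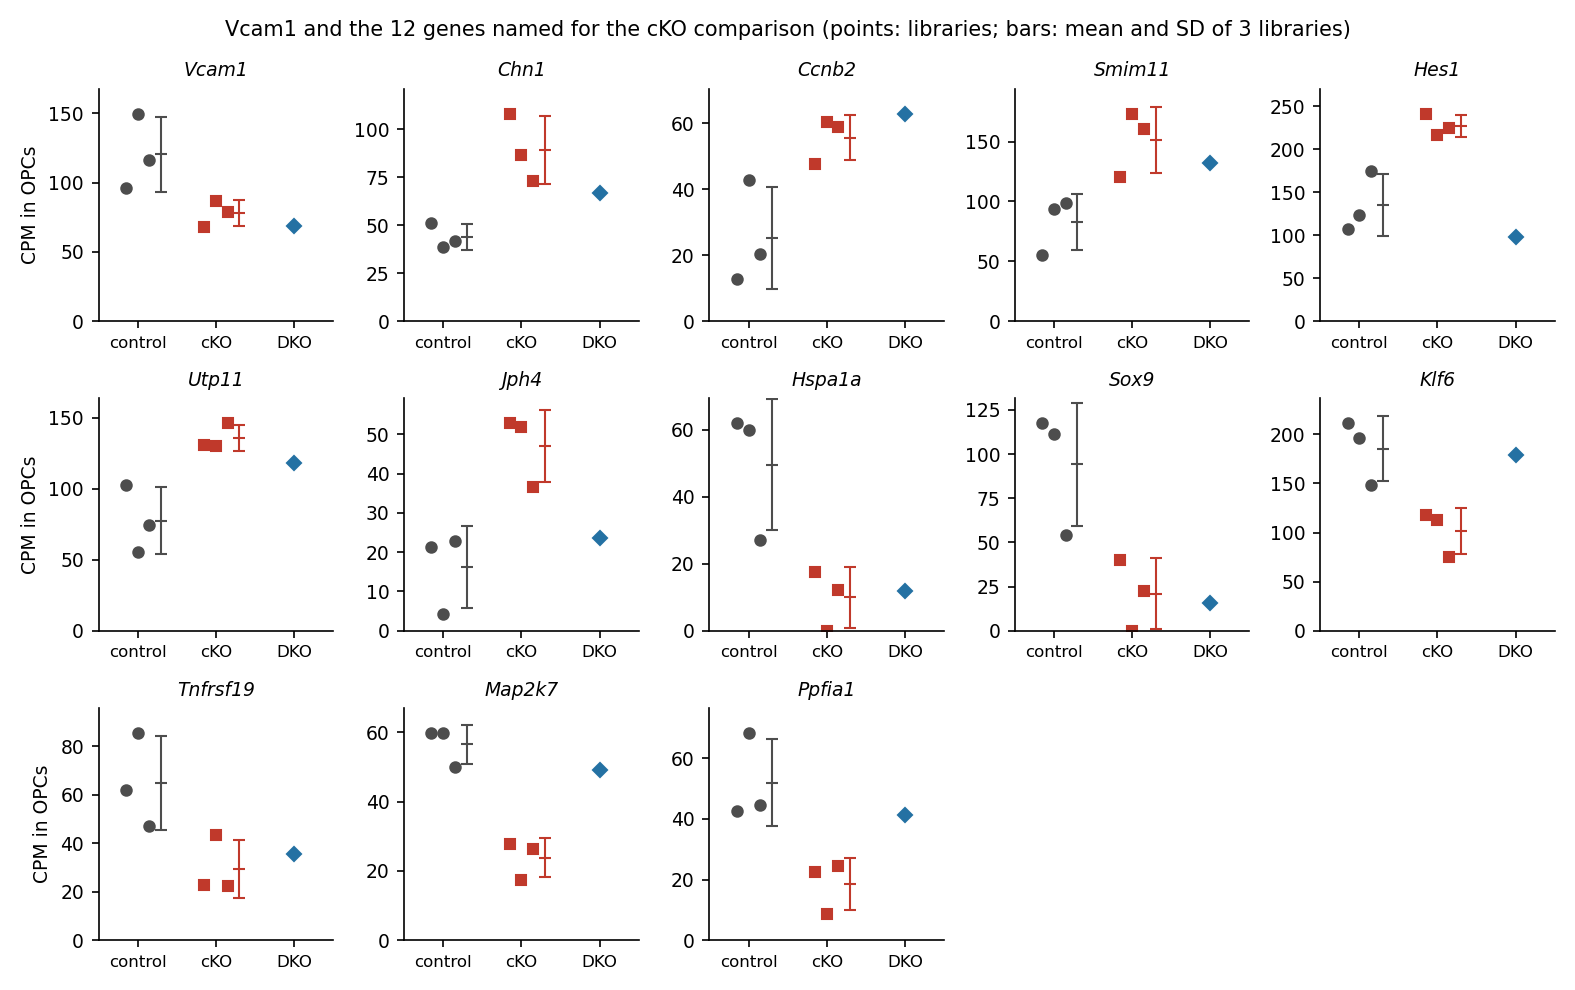
CPM in OPCs of Vcam1 and the 12 named genes in control, cKO and DKO libraries; points are libraries and bars the mean and SD of 3 libraries. Control and cKO points do not overlap in any panel, by the choice of the 12 genes, and the DKO value of Hes1, 98.3 CPM, lies below the control points.

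Of the gene lists, 0 members of any list were called between cKO and control. The OPC identity list had a median log2 difference of -0.04, with 14 of 35 members positive, glutamate and GABA receptor subunits 0.01 and channels 0.04, against -0.0005 over all genes tested. These medians lay close to that of all genes. Myelin genes had a median of -0.30 with 3 of 17 positive, and Mbp among them was at background in OPCs. The list median of the cKO to control ratio of mean CPM, with 1 CPM added to each, was -0.44 on the log2 scale, -0.17 with 7 positive without cKO 2 and -0.88 without cKO 3. It was -0.56 within the libraries of Cell Ranger 6.0.1 and -0.09, with 8 of 17 positive, within those of 6.1.1. For channels the same ratio was 0.14 with 22 of 28 positive. It was 0.33 without control 1 and -0.0039, with 14 positive, without control 2. Transcription factors of the lineage had a median of -0.12. In every cKO library 6 of 42 lay below control (5.15% of all genes did) and 1 above (3.99% of all genes did).

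Lists of protein synthesis and energy had mostly positive differences of small size. Of 79 ribosomal protein genes, 77 had a positive difference (49.9% of all genes did), with a median of 0.23. Only 1 lay above control in every cKO library (3.99% of all genes did). Their summed level was 43328, 60211 and 71297 CPM in control, 59271, 66955 and 78762 CPM in cKO and 79739 CPM in DKO, so that the groups overlapped and control 1 was lowest. The same ratio had a list median of 0.24, and it ran from 0.03 without control 1 to 0.40 without control 3. Within the libraries of Cell Ranger 6.0.1 it was 0.28 and within those of 6.1.1 it was 0.14. For 78 nuclear oxidative phosphorylation genes, 72 were positive with a median of 0.29, and the same ratio, 0.27, ran from 0.11 without control 1 to 0.41 without control 3. It was 0.28 within the libraries of Cell Ranger 6.0.1 and 0.25 within those of 6.1.1, where 1 library of each genotype remained. Ribosomal protein genes have many pseudogene copies, and reads that fit several copies are not counted. Splicing factors and nuclear RNA genes leaned lower, with 10 of 38 positive, a median of -0.13 and 8 of 38 below control in every cKO library, against 5.15% of all genes. Gm42418, a transcript that overlaps ribosomal RNA, ran from 1603 CPM in control 1 and 2521 CPM in control 2 to 35387 CPM in control 3 and 45054 CPM in cKO 3. The part of RNA quality in these lists was not tested.

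Mitochondrially encoded genes had a median difference of 0.27, with 12 of 13 positive and summed levels of 39401, 35863 and 33677 CPM in control against 42676, 43734 and 38693 CPM in cKO, which overlapped, and a ratio of 0.32 within version 6.0.1 and 0.16 within 6.1.1. The DKO level, 27505 CPM, was the lowest of all, so the DKO library did not share this direction. In cKO 2 and cKO 3 only 49.8% and 47.2% of barcodes passed the limits on detected genes and mitochondrial UMIs, against 70.2% to 74.7% elsewhere. The part of this in the mitochondrial levels was not tested. Immediate early genes, which rise within minutes of stimulation and also during tissue dissociation, leaned lower in cKO OPCs. Of 17 such genes, 2 were positive, with a median of -0.40. They summed to 4484, 5333 and 5223 CPM in control and 3989, 2423 and 4391 CPM in cKO, with no overlap, but to 5995 CPM in DKO. The list median of the ratio was -0.47, and -0.16 without cKO 2. It was -0.89 within version 6.0.1 and -0.22, with 7 of 17 positive, within 6.1.1. Fos, the best known of them, had 862, 1299 and 1294 CPM in control, 556, 234 and 1020 CPM in cKO and 1539 CPM in DKO. Over the 17 members with a fitted value in both classes, 2 were positive in OPCs and 6 in endothelial cells of the same suspensions, with medians of -0.40 and -0.10, and 0 were called as different between the classes.

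Lists of markers of other cell types had medians away from 0, with 0 members called. The 8 microglial markers tested had a median difference of -2.88 and the 13 astroglial ones of -1.04. Without control 2 the list medians of the cKO to control ratio were 0.48 and -0.06 in place of -3.35 and -1.17. For 5 endothelial and 5 mural markers the ratios were -1.16 and -0.64, and 0.59 and 0.06 without control 3. For 9 ependymal markers the ratio was 0.24, and -0.67 without cKO 1. The 8 neuroblast markers had a ratio of 0.68 with 7 positive, which ran from 0.22 without cKO 1 to 1.15 without cKO 2. Sox9 belongs to the astroglial list, and the part of astroglial RNA in its values was not tested. S phase and G2 and M phase lists had medians of 0.20 and 0.24, and the ratios were 0.15 and 0.28. The ratio was -0.21 without cKO 1 for S phase and -0.04 without cKO 2 for G2 and M phase. The cycling share of OPCs leaned the other way at equal depth, at 12.3% in control and 9.65% in cKO, with overlap. Neuron markers had a median of 0.80, with a ratio of 0.71 that became -0.32 without cKO 1, where 445 of 665 such UMIs lay in 1 cell.

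**Figure D5:**
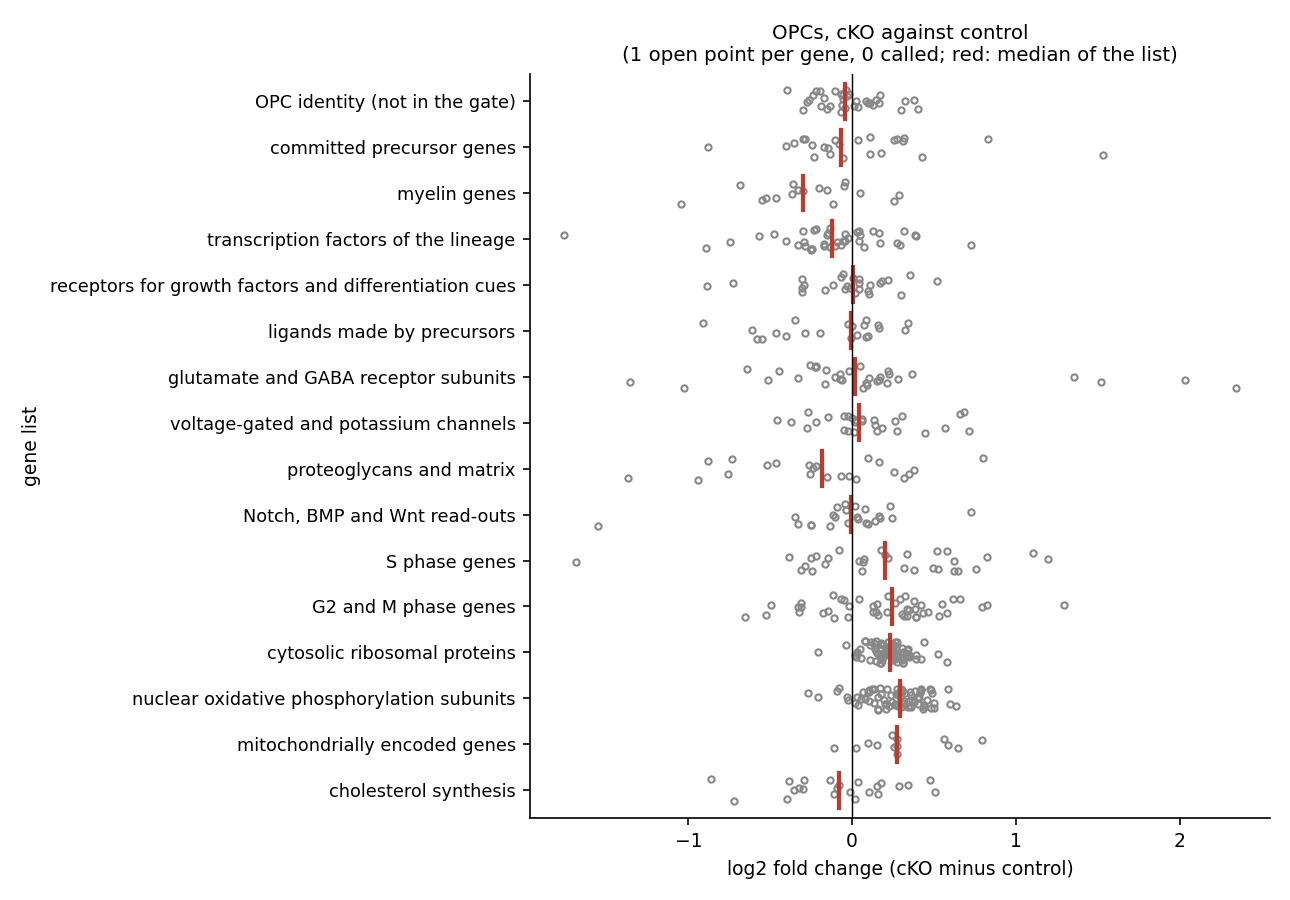
Log2 difference between cKO and control OPCs for each tested member of 16 gene lists; open points are genes, none of which was called, and red bars are list medians. The ribosomal and nuclear oxidative phosphorylation lists sit right of 0, with medians of 0.23 and 0.29, and the other medians lie between -0.30 and 0.27.

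Endothelial cells served as cells of the same suspensions outside the radial glial lineage. A test of whether the cKO effect differed between OPCs and the 2022 endothelial cells called 0 of 12882 genes (0%) by edgeR, with 386 at an unadjusted p under 0.05, and 0 by DESeq2, with 135. For Vcam1 the difference of the log2 effects was -1.09 ± 0.50 (edgeR adjusted p = 1), with endothelial levels in CPM of 128, 57.6 and 87.6 in control and 107, 286 and 85.1 in cKO. The endothelial level of Vcam1 in DKO was 38.4 CPM, below every control and cKO library. Prm1, at 0 in both classes of every control library, could not be fitted in this test.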

How the data were processed

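Single cells of the V-SVZ were measured by 10x Genomics 3′ RNA sequencing in 7 libraries. The authors aligned the reads to GRCm38 (mm10) with Cell Ranger and deposited raw UMI counts per gene and cell. The submitters' processing notes name Cell Ranger 6.1.1, while the file headers give 6.0.1 for control 1, control 2, cKO 1 and cKO 2. Library totals ran from 45758003 to 141353017 UMIs, and this sets the precision of each value.

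Counts were summed per library over the cells of each gate. Sums were tested with edgeR 4.0.16 (quasi-likelihood test, TMM scaling, low-count filter, Benjamini-Hochberg adjustment at 0.05) over all 7 libraries in 3 groups, or within libraries with the library as a block. Genes of either gate were taken out of the latter. Fold changes are on the log2 scale with their SE. Shares were compared after reduction of each cell to 4000 UMIs by exact permutation tests, with Clopper-Pearson intervals. Levels per gate in astroglia, and those of Prdm16 and Vcam1 in endothelial cells given beside them, are counts per total without TMM scaling. Values of separate fits are on separate scales. Doublets were marked with Scrublet (expected rate 0.08) and kept. The scripts were tested on simulated data. There the fit of cKO against control recovered 31 of 100 2-fold and 89 of 100 4-fold changes and called 19 unchanged genes. The result of 0 calls therefore does not exclude 2-fold changes.

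The members and the gene lists were chosen with earlier results of these data known. Named genes were Prdm16, Vcam1, Prm1 and the gate markers, the 6 higher and 6 lower genes of smallest unadjusted p between cKO and control whose groups did not overlap and whose average log2 CPM was 5 or more, and the 8 largest differences in each direction among genes called within libraries with an average log2 CPM of 6 or more and 1 direction in every library. Up to 6 members of a list of highest CPM were to be named, and further members were named as examples after their values were seen. Alternatives were DESeq2 1.42.0, RLE scaling, no filter, other gates, doublets left out, a replicate block, a Cell Ranger block and each library left out. Cycling against non-cycling OPCs could not be compared, since only control 3 had enough cells. P-values measure the spread between libraries of pooled mice. The result for 1 gene is not reported here.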

Additional observations from a re-analysis of the deposited data

How the results depend on the processing

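Between cKO and control OPCs, edgeR called 0 genes, and 0 also with RLE scaling, without DKO, with a Cell Ranger block, at 5% mitochondrial UMIs, without doublets, at both other gates, after reduction to equal depth and, chosen after seeing the data, without the upper limits on Bmp4, Enpp6, Mog and Opalin. DESeq2 called 1 gene (Prm1), a fit without the filter 4 (Pcp4, Prm1, Slco1c1 and Sox9) and equal numbers of OPCs 2 (Cks2 and Prm1). With a replicate block 1 gene was called, Prm1 (edgeR adjusted p = 3.50e-09). Deviations of same-numbered samples correlated by 0.127, 0.007 and 0.104 over 9264 genes, control 2 correlated best with cKO 3, and the labels give the numbers no shared origin, so they were not taken as pairs. Leaving out each library gave 0 to 3 calls, with Sox9, AY036118 and Dlx6os1 without control 3. For Gpr17 positive against negative OPCs, 4 genes were called, 0 with DESeq2, 0 without doublets and 16 without the filter. No library could be left out there. The difference of the cKO effect from endothelial cells gave 0 calls, 50 without the filter and 0 to 1 when a library was left out (Slco1c1 without control 1). The cycling share differed by -2.65 percentage points, by -5.12 at the stricter gate and by -5.00 without reduction to equal depth. The causes were not tested. Calls within libraries ranged from 3039 to 3467 against committed cells and from 7063 to 7954 against astroglia when a library was left out. With 12 to 98 OPCs in a library, genes of low level were measured by a few UMIs.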
